A study of Mus musculus with 6 samples.

Results

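The 10 genes described here were chosen as recognised targets of the miR-200 family of miRNAs or as regulators of the epithelial-to-mesenchymal transition. They are Zeb1, Zeb2, Cfl2, Wipf1, Sec23a, Zfpm2, Snai1, Snai2, Twist1 and Vim, and all 10 were measured among 19296 genes. Each has 1 probe set with a single gene symbol, so no choice between probe sets was needed.

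Transcripts of ureteric bud cells, the branching epithelium of the embryonic mouse kidney, were read on 6 Affymetrix whole-transcript arrays at E15.5 and on a mixed strain background. The 3 control arrays held cells with the genotype given as wild type. The 3 mutant arrays held cells of the genotype Dicerc/-; Hoxb7Cre; Rosa26YFP: 1 conditional and 1 null Dicer allele, a Cre driven in the ureteric bud by Hoxb7 sequences, and a YFP reporter of Cre activity. Kidneys of both groups had been digested with trypsin and sorted for YFP, so the controls must have carried some source of YFP, but which one is not given. An effect of Cre, or of the null allele outside the bud, cannot be told apart from that of losing Dicer in the bud. The values are log2 expression values from RMA (robust multi-array average), and the word dim below means under 7.51, the median of all probe set values. The labels call the replicates biological but do not say how many embryos went into each, so the p-values reflect the spread among these 6 samples only.

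Dicer1 itself was lower on each mutant array, at 9.80, 9.72 and 9.64 against 10.31, 10.38 and 10.25 in control cells (log2 fold change -0.59, limma adjusted p = 0.0005). Of 12 ureteric bud markers, 11 lay above the median brightness, as did 4 of 8 cap mesenchyme markers and 1 of 7 endothelial markers. None of the 12 stroma, 4 blood and 4 podocyte markers did. Of these bud markers 7 fell, 1 (Wnt9b) rose and 4 did not pass, with -0.23 as the median log2 fold change. Their summed linear signal was 37193 to 38172 in control and 32127 to 33343 in mutant arrays, and its part in the changes below was not tested. Across all genes, 25.8% passed an adjusted p of 0.05 in limma's test, 11.8% being higher and 13.9% lower in mutant cells, and over all genes the median log2 fold change was -0.05.

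Dicer cuts hairpin precursors into mature miRNAs, which pair with messenger RNAs through a short seed near the 5′ end and lower their level or translation. The miR-200 family is abundant in epithelia. It represses Zeb1 and Zeb2, the zinc finger repressors of E-cadherin, and the Zeb proteins in turn repress the miR-200 genes. Snai1, Snai2 and Twist1 are further repressors that act in the transition from epithelium to mesenchyme, and vimentin (Vim) is the intermediate filament protein of mesenchymal cells.

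The family's sequences are shown because its 5 mature miRNAs fall into 2 seed groups that differ at a single seed position, and each group reads a different target word. The sequences are RefSeq's on GRCm38.p6, written 5′ to 3′, with the seed (bases 2 to 8) in capitals. The first 3 share the seed AAUACUG, whose complement in a target is CAGUAUU, and the other 2 share AACACUG, whose complement is CAGUGUU.
miR-200b-3p (chr4:156055685-156055706, minus strand): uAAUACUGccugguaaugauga
miR-200c-3p (chr6:124718324-124718346, minus strand): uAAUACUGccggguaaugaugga
miR-429-3p (chr4:156053916-156053937, minus strand): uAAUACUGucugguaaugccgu
miR-200a-3p (chr4:156054911-156054932, minus strand): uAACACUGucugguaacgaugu
miR-141-3p (chr6:124717917-124717938, minus strand): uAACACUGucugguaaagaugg
Over the first 22 bases, miR-200b-3p and miR-200c-3p were identical at 20, as were miR-200a-3p and miR-141-3p, while miR-429-3p and miR-200c-3p shared 17. The precursor that Dicer cuts is shown for miR-200b, with the mature 3′ arm in capitals, since this is the step that Dicer carries out.
Mir200b hairpin (chr4:156055681-156055750, minus strand): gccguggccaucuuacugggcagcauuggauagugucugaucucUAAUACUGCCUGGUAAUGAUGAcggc

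Mature miRNAs were not measured on these arrays, but 4 of the 5 loci had a probe set with a single symbol (the probe set at Mir429 also names another gene and was left out). In limma's test 0 of the 4 passed an adjusted p of 0.05, and 0 had an unadjusted p under 0.05. Mir200a had log2 values of 6.80, 6.75 and 6.63 in control and 6.89, 6.75 and 6.86 in mutant cells, a log2 fold change of 0.10 with a 95% interval of -0.05 to 0.26. The log2 fold changes were 0.24 for Mir141 (-0.08 to 0.55), 0.17 for Mir200b (-0.14 to 0.48) and 0.00 for Mir200c (-0.21 to 0.21). All 4 probe sets were dim, and among dim genes 11.9% passed, so a count of 0 of 4 says little about these loci. In each of them the arrays of the groups overlapped. Arrays did not overlap in 42.5% of all genes but in only 2159 of the 9619 dim genes, so this too says little.

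Of the 10 genes, 3 rose in the Dicer mutant cells (Sec23a, Cfl2 and Wipf1), 1 fell (Zfpm2) and 6 did not pass an adjusted p of 0.05, where 25.8% of all genes passed. The median log2 fold change of the 10 was -0.04, next to -0.05 for all genes. All 4 that passed are on the list as miR-200 targets, and the other 2 targets, Zeb1 and Zeb2, did not pass, nor did Snai1, Snai2, Twist1 or Vim. Only Sec23a, Cfl2 and Vim lay above the median brightness. Among genes that bright, 39.6% passed (19.3% higher and 20.3% lower), and among dimmer genes 11.9% did.

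**Figure D1:**
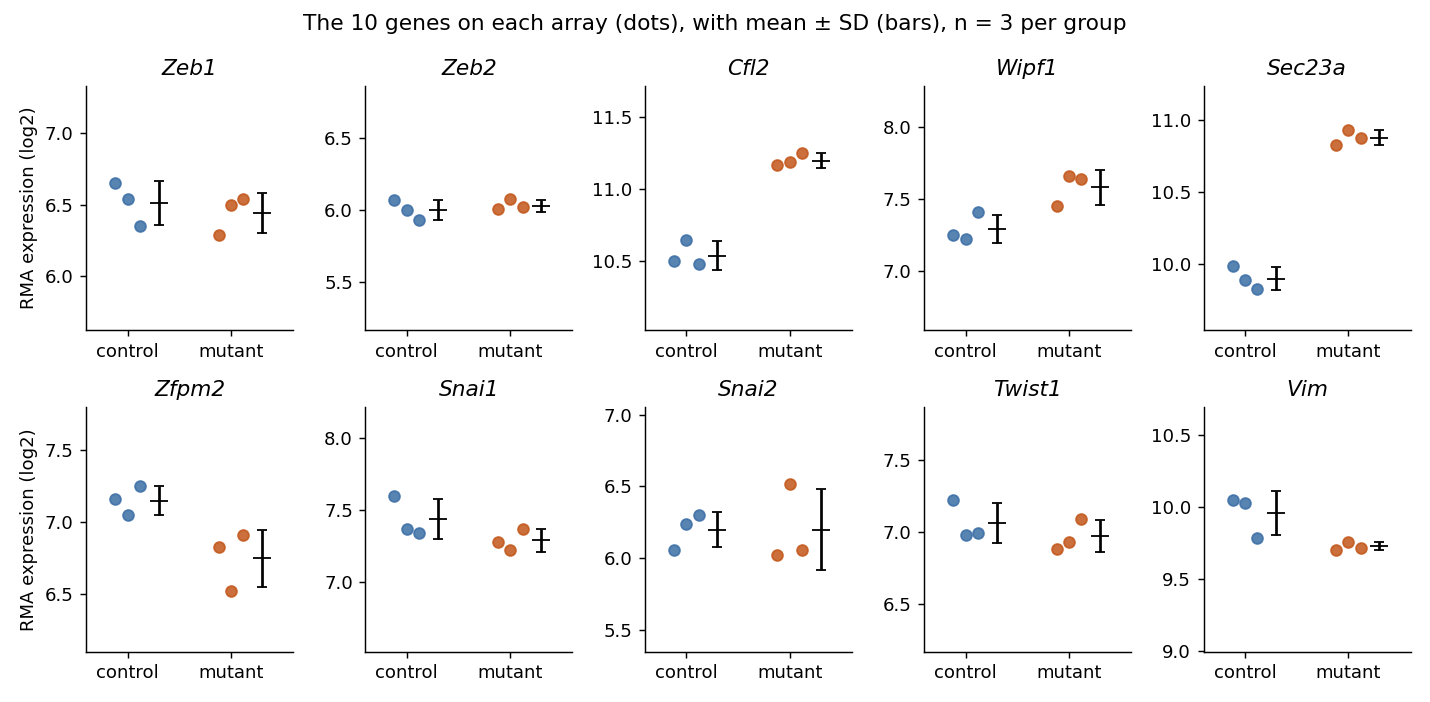
RMA expression (log2) of the 10 genes on each of the 3 control arrays (blue dots) and 3 mutant arrays (orange dots), with black bars for the mean ± SD (n = 3 per group); each panel spans the same range of log2 units. The groups stand clear of each other by the widest margin for Sec23a and Cfl2, while the dots of Zeb1, Zeb2, Snai1, Snai2 and Twist1 overlap between groups.

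Sec23a showed the largest change of the 10. It encodes a subunit of the inner COPII coat, which packs cargo into vesicles leaving the endoplasmic reticulum. Its log2 values were 9.99, 9.89 and 9.83 in control cells and 10.83, 10.93 and 10.88 in mutant cells. The mutant arrays lay together, far above the highest control array. The mean rose from 9.90 ± 0.08 to 10.88 ± 0.05 (SD, n = 3 each), which is 1.97-fold (log2 fold change 0.98, standard error 0.06, limma adjusted p = 5.88e-05).

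Cfl2 encodes cofilin-2, the muscle-type member of the family of proteins that sever actin filaments. Its log2 values were 10.50, 10.65 and 10.48 in control cells and 11.17, 11.19 and 11.25 in mutant cells. No control array came near the lowest mutant array. The mean went from 10.54 ± 0.10 to 11.20 ± 0.05 (SD, n = 3 each), a 1.58-fold rise (log2 fold change 0.66, standard error 0.07, limma adjusted p = 0.000357). Sec23a and Cfl2 passed in each of the 6 fits that left out 1 array, with log2 fold changes of 0.94 to 1.03 and 0.62 to 0.71.

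Wipf1 encodes a protein that binds and stabilises the WASP family activators of actin branching. Its log2 values were 7.25, 7.22 and 7.41 in control cells and 7.45, 7.66 and 7.64 in mutant cells. The groups did not overlap, but the lowest mutant array sat just above the highest control array. The mean rose from 7.29 ± 0.10 to 7.58 ± 0.12 (SD, n = 3 each), or 1.22-fold (log2 fold change 0.29, limma adjusted p = 0.0337). Its call was lost without control replicate 1 (adjusted p = 0.0889), control replicate 2 (0.106), mutant replicate 2 (0.114) or mutant replicate 3 (0.105). Its log2 fold change without 1 array ranged from 0.25 to 0.36.

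Zfpm2, also called FOG2, is a cofactor of GATA transcription factors and was the only one of the 10 to fall. Its log2 values were 7.16, 7.05 and 7.25 in control cells and 6.83, 6.52 and 6.91 in mutant cells. Each mutant array was below each control array, and mutant replicate 2 was the lowest. The mean changed from 7.15 ± 0.10 to 6.75 ± 0.20 (SD, n = 3 each), which puts mutant cells at 75.6% of the control level (log2 fold change -0.40, limma adjusted p = 0.0251). The call was lost without control replicate 1 (adjusted p = 0.0631) or control replicate 3 (adjusted p = 0.0589), and the gene was dim in both groups. In bulk samples such as these, fewer cells of a type and less RNA per cell cannot be told apart.

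The Zeb repressors showed no difference beyond the spread between arrays. Zeb1 had log2 values of 6.65, 6.54 and 6.35 in control cells and 6.29, 6.50 and 6.54 in mutant cells. Both groups covered nearly the same range. Its log2 fold change was -0.07, with a 95% interval of -0.29 to 0.15 (limma adjusted p = 0.63). Its sign turned under quantile normalization of the deposited values (0.01) and without mutant replicate 1 (0.01).

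Zeb2 had log2 values of 6.07, 6.0 and 5.93 in control cells and 6.01, 6.08 and 6.02 in mutant cells. These 6 values overlapped closely. The log2 fold change was 0.03, with a 95% interval of -0.10 to 0.17 (limma adjusted p = 0.718). The upper ends of the intervals of both Zeb genes lay below the lower ends of those of Sec23a (0.83 to 1.13) and Cfl2 (0.51 to 0.81). Zeb1 and Zeb2 were dim in both groups, the table holds no detection call, and RMA compresses changes of dim genes.

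The Snail and Twist genes did not pass either. Snai1 had log2 values of 7.60, 7.37 and 7.34 in control cells and 7.28, 7.22 and 7.37 in mutant cells, and control replicate 1 was the highest of the 6. Its log2 fold change was -0.14, with a 95% interval of -0.33 to 0.05 (limma adjusted p = 0.247). Twist1 had log2 values of 7.22, 6.98 and 6.99 in control and 6.88, 6.93 and 7.09 in mutant cells. The groups overlapped, with a log2 fold change of -0.09 (95% interval -0.30 to 0.11, limma adjusted p = 0.473).

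Snai2 had the widest spread of the 10 in mutant cells, with log2 values of 6.02, 6.52 and 6.06, against 6.06, 6.24 and 6.30 in control cells. Mutant replicate 2 was the highest of the 6 and mutant replicate 1 the lowest. The means were both 6.20, with SDs of 0.12 in control and 0.28 in mutant cells (n = 3 each). The log2 fold change was 0.00, with a 95% interval of -0.31 to 0.31 (limma adjusted p = 0.991), and its sign turned under quantile normalization and median centring. All 3 genes were dim on average.

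Vim missed the threshold narrowly. Its log2 values were 10.05, 10.03 and 9.79 in control cells and 9.70, 9.76 and 9.72 in mutant cells. Each mutant array was below each control array, but control replicate 3 lay close to the mutant arrays. The means were 9.96 ± 0.15 and 9.73 ± 0.03 (SD, n = 3 each), with a log2 fold change of -0.23 and a 95% interval of -0.41 to -0.05 (limma adjusted p = 0.0673). Without control replicate 3 the log2 fold change was -0.31 and passed (adjusted p = 0.00951). It also passed with array weights (adjusted p = 0.0324), with dim genes left out (0.0253) and with a variance trend and robust estimation (0.0172). In all, 5 of the 10 genes had arrays that did not overlap between groups, 3 with the mutant above and 2 with the mutant below. Of all genes 42.5% had such arrays: 6033 of the 9677 above the median brightness and 2159 of the 9619 below it.

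Vimentin is made by mesenchymal and endothelial cells, so markers of other cell types were read beside it. Among dim genes 11.9% passed in limma's test, and among brighter genes 39.6% did. The stroma, blood and podocyte markers were all dim, so a low count there says little. Of 12 stroma markers, 0 rose and 1 fell in limma's test (0 rose and 2 fell at an unadjusted p under 0.05), with -0.01 as their median log2 fold change. Their summed linear signal was 1069 to 1143 in control and 1039 to 1156 in mutant arrays. Of 7 endothelial markers 0 passed (2 were lower at an unadjusted p under 0.05 in limma's test), with a median of -0.22 and summed signals of 917 to 1105 and 782 to 954. The 4 measured blood markers gave 307 to 367 and 307 to 322, and 1 of them, Ptprc, fell (log2 fold change -0.45). Of 4 podocyte markers 1 fell, and their sums were 441 to 498 and 461 to 485. The sum of the 8 cap mesenchyme markers was 1216 to 1257 in control and 2269 to 2389 in mutant arrays, but their median log2 fold change was -0.09. Only Six2, with log2 means of 7.05 and 10.34, passed with a rise, so the higher sum does not describe the list. Of these 8, Six2 rose (log2 fold change 3.29), Osr1 fell (-0.67, limma adjusted p = 0.0208) and 6 did not pass, among them Cited1 (0.27, adjusted p = 0.0503). RMA values do not reach 0, and the part of other cell types in the values of Vim and of the dim genes was not tested.

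The nearest relatives of the changed genes moved less. Sec23b, the paralog of Sec23a, had a log2 fold change of 0.04 (95% interval -0.08 to 0.17), and Cfl1, the non-muscle cofilin, had -0.06 (-0.18 to 0.06). The log2 difference between Sec23a and Sec23b within an array changed from -1.16 ± 0.04 to -0.22 ± 0.02 (SD, n = 3 each), a shift of 0.94. The difference between Cfl2 and Cfl1 shifted by 0.72, from -2.08 ± 0.08 to -1.36 ± 0.08 (SD, n = 3 each). These differences compare changes, not levels, since probe sets differ in brightness.

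Of the other pairs, Zfpm2 against Zfpm1 shifted by -0.45 and Wipf1 against Wipf2 by 0.14. In two-sided exact permutation tests the shifts of Sec23a, Cfl2 and Zfpm2 gave p = 0.1, the smallest that 3 against 3 arrays allow, and that of Wipf1 gave p = 0.3. Adjusted over the 4 pairs, these were 0.133 and 0.3, so no pair could pass 0.05 in this design. Wipf1 and Wipf2 (0.15, 95% interval -0.01 to 0.32) had overlapping intervals.

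**Figure D2:**
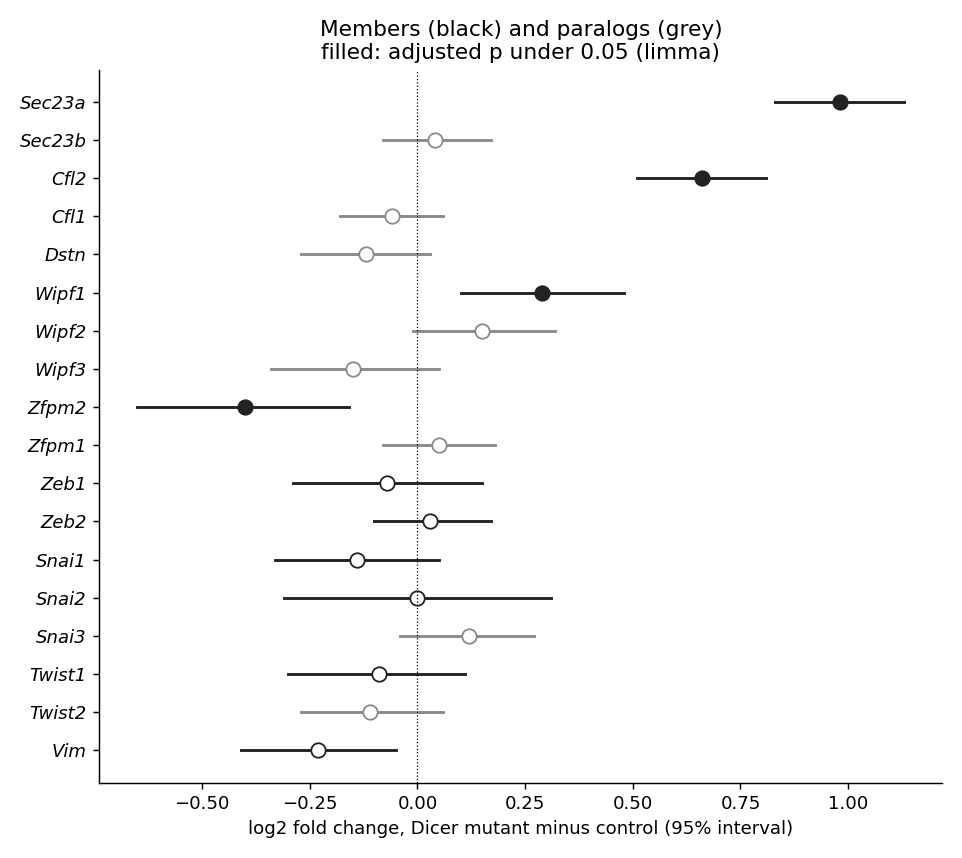
Log2 fold changes (mutant minus control) with 95% intervals from limma for the 10 genes (black) and their paralogs (grey); filled circles passed an adjusted p of 0.05. Sec23a at 0.98 and Cfl2 at 0.66 lie to the right of Sec23b at 0.04 and Cfl1 at -0.06 with no overlap of intervals, and the intervals of the Zeb, Snail and Twist genes all cross 0.

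Among 19 paralogs and partners of the 10 genes, 2 rose, 3 fell and 14 did not pass, with a median log2 fold change of 0.01. Of all genes 25.8% passed, and of genes above the median brightness, where 15 of the 19 lay, 39.6% did, so the count was no larger than the background. Those that rose were Sec24d (0.45, limma adjusted p = 0.00207) and Sec24a (0.28, adjusted p = 0.00722), which select cargo for the COPII coat together with Sec23. Sar1a, the small GTPase that starts coat assembly, fell by 0.42 on the log2 scale (adjusted p = 0.000923), and Sec13 of the outer coat fell by 0.25 (adjusted p = 0.0274). Sec24b, Sec24c, Sar1b and Sec31a did not pass, at log2 fold changes of 0.09, 0.01, -0.06 and 0.16. The COPII genes therefore changed in both directions.

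Of the actin regulators in that list, Was, the WASP gene of blood cells, was the third to fall (log2 fold change -0.29, limma adjusted p = 0.0199). It was dim, and its call was lost without control replicate 1, control replicate 2, mutant replicate 2 or mutant replicate 3. The call of Sec13 was lost in 4 of the 6 fits without 1 array (adjusted p up to 0.108) and with the replicate number as a block (0.0794). Wasl, Dstn and Wipf3 did not pass, at log2 fold changes of 0.10, -0.12 and -0.15. Gata4, a partner of Zfpm2, had -0.07, and Snai3 and Twist2 had 0.12 and -0.11. The count of 5 genes became 3 without control replicate 1 or without mutant replicate 3.

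Further genes known as miR-200 targets rose more often than they fell. Of 24 measured, 13 rose, 0 fell and 11 did not pass in limma's test, with a median log2 fold change of 0.25. At an unadjusted p under 0.05 the counts were 16 higher and 1 lower. Without control replicate 2, 11 rose and 1 fell, and without control replicate 3, 12 rose and 2 fell. Of all genes 11.8% were higher, and of genes above the median brightness, where 18 of the 24 lay, 19.3% were. The list was drawn up with earlier results of these arrays known, and its count is a description.

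The smallest p among them was that of Plcg1, a phospholipase C that acts downstream of growth factor receptors. Its log2 values were 9.05, 9.22 and 9.19 in control cells and 10.03, 10.12 and 10.03 in mutant cells. The groups were well apart, with a log2 fold change of 0.90 (limma adjusted p = 0.000101). Klhl20, an adaptor of a cullin ubiquitin ligase, had log2 values of 9.15, 9.22 and 9.20 against 9.83, 9.93 and 9.87, a log2 fold change of 0.69 (adjusted p = 0.000151).

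Pkd1, which encodes polycystin-1 and is mutated in polycystic kidney disease, had log2 values of 8.22, 8.14 and 8.02 against 8.83, 9.01 and 8.93 (log2 fold change 0.80). Fn1, the matrix protein fibronectin, had 11.55, 11.52 and 11.59 against 12.07, 12.09 and 12.10 (log2 fold change 0.53). In both genes the lowest mutant array was above the highest control array. All 4 of these genes passed in every fit that left out 1 array.

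**Figure D3:**
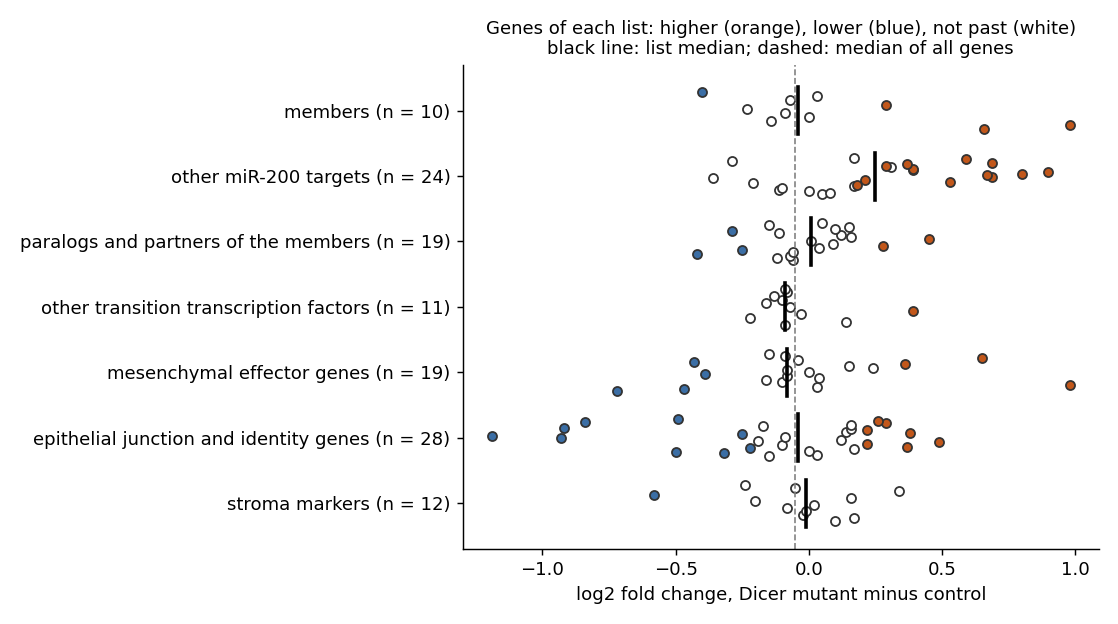
Log2 fold change (mutant minus control) of each gene in 7 lists, orange where higher and blue where lower at an adjusted p of 0.05 (limma), white where not past it; black lines mark list medians and the dashed line the median of all genes. The 24 other miR-200 targets have 13 orange and 0 blue dots and a median of 0.25, while the epithelial genes have 7 orange and 9 blue dots and a median of -0.04.

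Other transcription factors of the transition were also read. Of 11 measured, 1 rose, 0 fell and 10 did not pass in limma's test (1 higher and 2 lower at an unadjusted p under 0.05), with -0.09 as the median log2 fold change. For comparison, 39.6% of genes brighter than the median passed (6 of the 11 were that bright), against 11.9% of dimmer genes. The one that rose was Klf8, a zinc finger repressor, with log2 means of 6.88 in control and 7.26 in mutant cells (log2 fold change 0.39, adjusted p = 0.0182). It was dim, and without mutant replicate 2 it did not pass (adjusted p = 0.0625), which left 0 of the 11.

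Genes that mesenchymal cells use included some that rose and some that fell. Of 19 measured, 3 rose, 4 fell and 12 did not pass, with -0.08 as the median log2 fold change. The share of all genes that passed was 25.8%, with 39.6% of those above the median brightness (7 of the 19 lay there) and 11.9% of those below. Cdh2, which encodes N-cadherin, rose from 6.50 to 7.48 (log2 fold change 0.98, limma adjusted p = 0.000165). Sparc, a matrix glycoprotein, rose from 11.32 to 11.97 (0.65, adjusted p = 0.000359), and the membrane protease Mmp14 from 10.77 to 11.14 (0.36, adjusted p = 0.00427). The fibrillar collagen gene Col5a2 fell by 0.39 on the log2 scale (adjusted p = 0.00313). The others that fell were Acta2 (-0.72, adjusted p = 0.0168), Cd44 (-0.47, adjusted p = 0.0111) and Mmp2 (-0.43, adjusted p = 0.0395). Cdh2, Col5a2 and Cd44 were dim on average.

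Genes of epithelial junctions and identity also divided. Of 28 measured, 7 rose, 9 fell and 12 did not pass, with a median log2 fold change of -0.04. As 27 of the 28 lay above the median brightness, the share to read this against is 39.6%. Cdh1, the E-cadherin gene that the Zeb and Snail proteins repress, had log2 values of 11.83, 11.81 and 11.83 in control cells and 11.86, 11.89 and 11.82 in mutant cells. All 6 arrays lay within a narrow range, and its log2 fold change was 0.03 (95% interval -0.09 to 0.15, limma adjusted p = 0.704). Epcam, an epithelial adhesion molecule, had a log2 fold change of -0.10 (95% interval -0.23 to 0.02) and did not pass.

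The epithelial genes with the smallest p all fell. Rab25, a GTPase of epithelial membrane recycling, had log2 values of 10.61, 10.52 and 10.67 in control cells and 9.79, 9.76 and 9.73 in mutant cells. The groups were far apart (log2 fold change -0.84, limma adjusted p = 9.2e-05). Ovol1, a transcription factor that favours the epithelial state, had 9.08, 9.23 and 9.32 against 8.47, 8.39 and 7.99 (log2 fold change -0.92, adjusted p = 0.00148), and mutant replicate 3 was the lowest. The tight junction genes Tjp3 and Cldn3 fell by 0.49 and 0.50 on the log2 scale (adjusted p = 0.000482 and 0.00196). Next by p came Dsp (log2 fold change 0.37, limma adjusted p = 0.00287) and Llgl2 (0.38, adjusted p = 0.00421), which both rose. Of the whole list 7 rose and 9 fell, with log2 fold changes from -1.19 to 0.49.

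The Zeb and Snail proteins bind the E-box CAGGTG, so promoters were searched for it and its reverse complement CACCTG. No other motif was searched. The promoters are RefSeq's on GRCm38.p6, from 250 bases before to 50 after a gene's start. Of 16 epithelial genes with a promoter there, 14 (87.5%) held the motif, against 22.6% of 27025 genes with a promoter. Of the 14, 1 rose, 6 fell and 7 did not pass, and the 2 without it did not pass. Among genes above the median brightness, where all 14 lay, 19.3% were higher and 20.3% lower. With only 2 genes lacking the motif, calls with and without it cannot be compared. The rest of the list had no promoter there. In that part Llgl2, Esrp2, St14, Pkp3, Mpp5 and Esrp1 rose, and Ovol1, Krt19 and Cdh16 fell. Most of the list's genes that rose were thus not searched, so the calls of the 14 do not stand for the list. The list was chosen from genes known for this regulation and its promoters are incomplete, so the share describes the list.

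Windows of 30 bases before the start site are shown, read on each gene's strand with every match to CAGGTG or CACCTG in capitals. The distance is that of the match in the middle of the window, and the Rab25 window holds a second match, 64 bases before the start. They set genes that fell (Rab25, Tjp3 and Crb3, the last chosen after its values were seen) beside Epcam, which did not pass, and Snai1, the only one of the 7 members with a promoter there that held the motif.
Rab25, 53 bases before the start (chr3:88548315-88548344, minus strand): cCACCTGtgcccCAGGTGcccagcggagct
Tjp3, 108 bases before the start (chr10:81291672-81291701, minus strand): gtcacaaggggtCAGGTGtacagacaggga
Crb3, 37 bases before the start (chr17:57062182-57062211, plus strand): ctcagccaggctCAGGTGcacaagccggaa
Epcam, 19 bases before the start (chr17:87635948-87635977, plus strand): acccataaaaccCAGGTGtggaggagaagc
Snai1, 126 bases before the start (chr2:167538057-167538086, plus strand): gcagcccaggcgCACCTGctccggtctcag
The log2 fold changes of these genes, in the same order, were -0.84, -0.49, -0.22, -0.10 and -0.14. CAGGTG and CACCTG are the same site read on opposite strands, and Rab25, Crb3 and Epcam held both before the start. The promoter of Crb3 held 4 matches and that of Epcam 2, with 1 window shown for each gene. Cldn3, which fell, and Dsp, which rose (0.37), also held the motif, but had no match with a whole window before the start. A match is a description of the letters and not a bound site. Sec23a, Cfl2, Wipf1, Zeb2, Twist1 and Vim held no match in this window.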

How the data were processed

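The authors deposited log2 RMA expression values, with a value for each probe set on each array. The submitters' processing notes name RMA and the affy package. Versions, genome build and filters were not given in the sources used here. This method forces arrays to a common distribution, so a shift of most transcripts alike would be removed. Probe sets with exactly 1 symbol in the platform annotation were kept (20728 of 23309), and per gene the one with the highest mean over the 6 arrays. Both groups entered 1 limma model (limma 3.58.1, R 4.3.3, lmFit and eBayes) over 19296 genes with genotype as its term, Benjamini-Hochberg adjustment over all genes, a threshold of 0.05 and two-sided tests. On simulated arrays of 19296 genes, 68% of 50 genes with a log2 change of 0.5 were recovered, and 96% at 1, and 8 unchanged genes were called. That simulation only raised genes, 50 at each log2 change of 0.5, 1, 2 and 3. Far more genes passed in the real arrays, in both directions, so recovery there may differ. Precision is limited by the number of arrays.

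The 10 genes and the lists were chosen with earlier results of these data known. All 10 members, Dicer1, the paralogs and partners, the miR-200 loci and Cdh1, Epcam, Cdh2 and Fn1 are named. Of the other target, transcription factor, mesenchymal and epithelial lists, up to 4 genes past the threshold by smallest p are named. Wnt9b, Ptprc, Six2, Osr1, Cited1, Crb3, Dsp and Llgl2 were named after their values were seen. So were Esrp1, Esrp2, St14, Pkp3, Mpp5, Krt19, Cdh16, Acta2, Cd44 and Mmp2. The fit was repeated without each array in turn, with the replicate number as a block, with quantile normalization or median centring, without dim genes, with averaged probe sets, with array weights, with a variance trend and robust estimation, and at a threshold of 0.01. Where target sites lie in the transcripts was not analysed here. Figures were drawn with matplotlib 3.10.9.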

Additional observations from a re-analysis of the deposited data

How the results depend on the processing

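Of the 10 genes, 4 passed under the replicate block, quantile normalization, median centring and the mean of probe sets, and 5 with a variance trend and robust estimation or with array weights. Leaving out 1 array gave 2 to 4. At a threshold of 0.01, 2 passed (Sec23a and Cfl2). At that threshold 2790 of all genes, 9 other miR-200 targets and 3 paralogs and partners passed. So did 0 other transcription factors, 8 epithelial and 4 mesenchymal genes, and all these counts are lower by construction. The other miR-200 targets gave 10 to 14 without 1 array. They gave 13 higher and 1 lower with dim genes left out, and 14 higher and 1 lower with a variance trend and robust estimation. Without 1 array, paralogs and partners gave 3 to 4 and the other transcription factors 0 to 1. The latter gave 2 with dim genes left out, 0 higher and 2 lower, where the dim Klf8 was not tested. With a variance trend and robust estimation they gave 3, of which 1 was higher and 2 were lower. The cause of the 3 was not tested. The filter on dim genes asked for a mean above 7.51 in either group, which 4 of the 10 genes met. Wipf1 was among them through its mutant mean alone (7.58, against 7.29 in control cells), and 6 were not tested.

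Changes of sign were found only among genes that did not pass. Zeb1 was 0.01 under quantile normalization and without mutant replicate 1, with a range of -0.15 to 0.01 without 1 array, and Zeb2 was 0.00 (range 0.00 to 0.07) without control replicate 3. Snai2 was 0.07 under quantile normalization, 0.03 with median centring, and 0.02, 0.05, 0.09 and 0.07 without control replicates 2 and 3 and mutant replicates 1 and 3 (range without 1 array -0.16 to 0.09). Mir200c was -0.05 with array weights, and -0.07, -0.06 and -0.01 without control replicate 3 and mutant replicates 2 and 3 (range -0.07 to 0.08). Gata4 was 0.01 under quantile normalization, and Sec24c was 0.00 without control replicate 2 or mutant replicate 2. The cause of these was not tested.

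Arrays share only replicate numbers: the deviations of same-numbered arrays correlated at -0.189, -0.095 and -0.219 across genes. With the number as a block, 3603 genes passed in place of 4975. Dim genes limit what these arrays can show for Zeb1, Zeb2, Snai1, Snai2 and Twist1.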
